A study of Mus musculus with 17 samples.

Results

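Ketone body and butanoate metabolism was followed in whole kidneys through 8 genes, each found by its symbol in the deposited table: Bdh1, Bdh2, Oxct1, Acat1, Slc16a1, Slc5a8, Acsm2 and Acsm5. They are 8 of the 22558 genes used, and all 8 passed the filter on low counts in each comparison. RNA was sequenced from 17 male mice, 1 library per mouse. The Ctrl group held 5 C57BL/6 mice and the Case group 6 db/db mice (BKS.Cg-Dock7m +/+ Leprdb/J), which lack a working leptin receptor, and both received saline by gavage. The Dapa group held 6 db/db mice of the same strain that received dapagliflozin, which blocks the renal glucose transporter SGLT2. Dosing was 1 mg/kg daily, began at 8 weeks of age and lasted 6 weeks. All mice ate standard chow. The Ctrl mice are of another strain, so the db genotype and the strain background cannot be told apart in any comparison with Ctrl.

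Ketone bodies are small acids that the liver makes from fatty acids in fasting or insulin lack and that other organs burn. 3-Hydroxybutyrate is oxidized to acetoacetate by Bdh1, acetoacetate is joined to CoA by Oxct1, and Acat1 splits the product into acetyl-CoA. The cells of the proximal tubule reclaim ketone bodies, lactate and butyrate from the filtrate through sodium-coupled carriers such as Slc5a8, while Slc16a1 moves the same acids together with a proton. Acsm enzymes join medium-chain fatty acids to CoA, and some of them also take short-chain butyrate or aromatic acids. SGLT2 inhibitors are known to raise ketone bodies in blood.

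Levels are given as FPKM (reads scaled to gene length and to the library's total count), which the authors computed, and changes as log2 fold changes of TMM-normalized counts with their standard error. A gene was called when its q, the Benjamini-Hochberg adjusted p of edgeR's quasi-likelihood test over all genes tested, was under 0.05, and a DEG also had group means of FPKM that differed by more than 2-fold. The total count was 15757676 to 16902608 per mouse in Ctrl, 14229892 to 17779635 in Case and 13039535 to 16094410 in Dapa. Mitochondrial genes took 17.9% to 20.4% of it in Ctrl, 19.8% to 27.3% in Case and 19.7% to 27.6% in Dapa, so that 5 of 6 Case and 4 of 6 Dapa mice were above every Ctrl mouse, and the part of this share in the comparisons with Ctrl was not tested. In 7 libraries (Ctrl 1, 3 and 4, Case 1 and Dapa 10, 11 and 12), FPKM and counts did not match for 3 genes that are not used here, so results are also given for the other 10. Whole-kidney RNA cannot tell fewer cells of a type from less RNA per cell.

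The 8 genes lie on 6 chromosomes (mm10) and are all protein coding. Acsm5 (chr7:119526304-119543793) and Acsm2 (chr7:119554469-119600694) are neighbours on the plus strand, followed by Acsm1 (chr7:119607026-119662515) and Acsm3 (chr7:119760923-119787513). Bdh2 (chr3:135281221-135304426) and Slc16a1 (chr3:104638668-104658462) are far apart on chromosome 3. The others are Bdh1 (chr16:31422280-31458901), Oxct1 (chr15:4026383-4155344), Acat1 (chr9:53580522-53610382) and Slc5a8 (chr10:88885992-88929505). Of the 50-base stretches of each gene's transcripts, 0.485% for Acsm2 and 0 for the other 7 also occur in transcripts of another gene, so the Acsm genes can be counted apart from one another.

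The 250 bases before the start of 3 genes are given here, from RefSeq on GRCm38.p6 and 5′ to 3′ on the plus strand. Acsm2 and Acsm5 are shown because they are adjacent and differ in the size of their change, and Slc16a1 because it is the member whose level in Dapa lay above that in Ctrl. For Acsm2, RefSeq gives a second start downstream, whose window (chr7:119561458-119561757) is not printed. The windows are chr7:119554090-119554339, chr7:119526015-119526264 and chr3:104638414-104638663. Capitals mark a match to one of the motifs searched.
Acsm2: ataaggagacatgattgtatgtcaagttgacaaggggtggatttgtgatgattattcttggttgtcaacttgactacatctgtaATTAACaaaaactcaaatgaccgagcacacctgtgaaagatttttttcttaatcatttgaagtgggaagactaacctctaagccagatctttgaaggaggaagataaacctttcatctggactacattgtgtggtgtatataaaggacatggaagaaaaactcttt
Acsm5: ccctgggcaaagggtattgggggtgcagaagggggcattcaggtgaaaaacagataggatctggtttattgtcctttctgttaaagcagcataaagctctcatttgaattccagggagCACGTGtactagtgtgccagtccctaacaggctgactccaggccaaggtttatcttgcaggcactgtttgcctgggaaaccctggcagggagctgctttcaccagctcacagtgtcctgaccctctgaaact
Slc16a1: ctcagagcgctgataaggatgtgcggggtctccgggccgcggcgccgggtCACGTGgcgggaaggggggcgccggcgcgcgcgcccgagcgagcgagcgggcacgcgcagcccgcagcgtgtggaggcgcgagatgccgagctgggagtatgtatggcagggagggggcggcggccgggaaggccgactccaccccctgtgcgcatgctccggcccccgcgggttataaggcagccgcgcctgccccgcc
For 4 motifs, matches were searched on both strands in 300-base promoter windows (these 250 bases and the next 50) of 7 members, since Acat1 had no entry. Acsm2 and Bdh1 had 2 windows each and the others 1. The E-box CACGTG was found in Acsm5, from base -132, and Slc16a1, from base -200, and in 7.15% of all 32817 windows. GTTAAT, part of the HNF1 motif, was found in 1 member, Acsm2, from base -166 on the minus strand of the window printed and not in its second window, and in 7.10% of all windows. AGGTCA, the core of many nuclear receptor sites, was found in 0 members and 16.3% of windows. The HNF4-type motif CAAAGTCCA was found in 0 members and 0.475% of windows, and no motif overlaps another. A match is a description of letters, not of binding.

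In Ctrl kidneys the genes spanned a wide range of levels per length. Acsm2 was highest at 400.5 ± 80.1 FPKM (SD, n = 5). Oxct1 (202.0 ± 47.7) and Acat1 (196.7 ± 12.9) came next and did not differ beyond their spread, since Oxct1 was above Acat1 in 2 of 5 mice. Acsm5 (82.5 ± 13.0), Slc5a8 (69.3 ± 18.2) and Bdh2 (49.7 ± 0.949) followed, with overlapping ranges between neighbours. Bdh1 (16.7 ± 1.60) and Slc16a1 (12.6 ± 3.88) were lowest and overlapped. In Case and Dapa the mean of Oxct1 was in first place and Acsm2 in second, but Oxct1 was above Acsm2 in 2 of 6 mice of each group. Bdh1 was the lowest of the 8 in both. Together the 8 genes took 0.670% ± 0.107 (SD, n = 5) of all counts in Ctrl, 0.291% ± 0.0708 in Case (n = 6) and 0.319% ± 0.0555 in Dapa (n = 6).

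**Figure D1:**
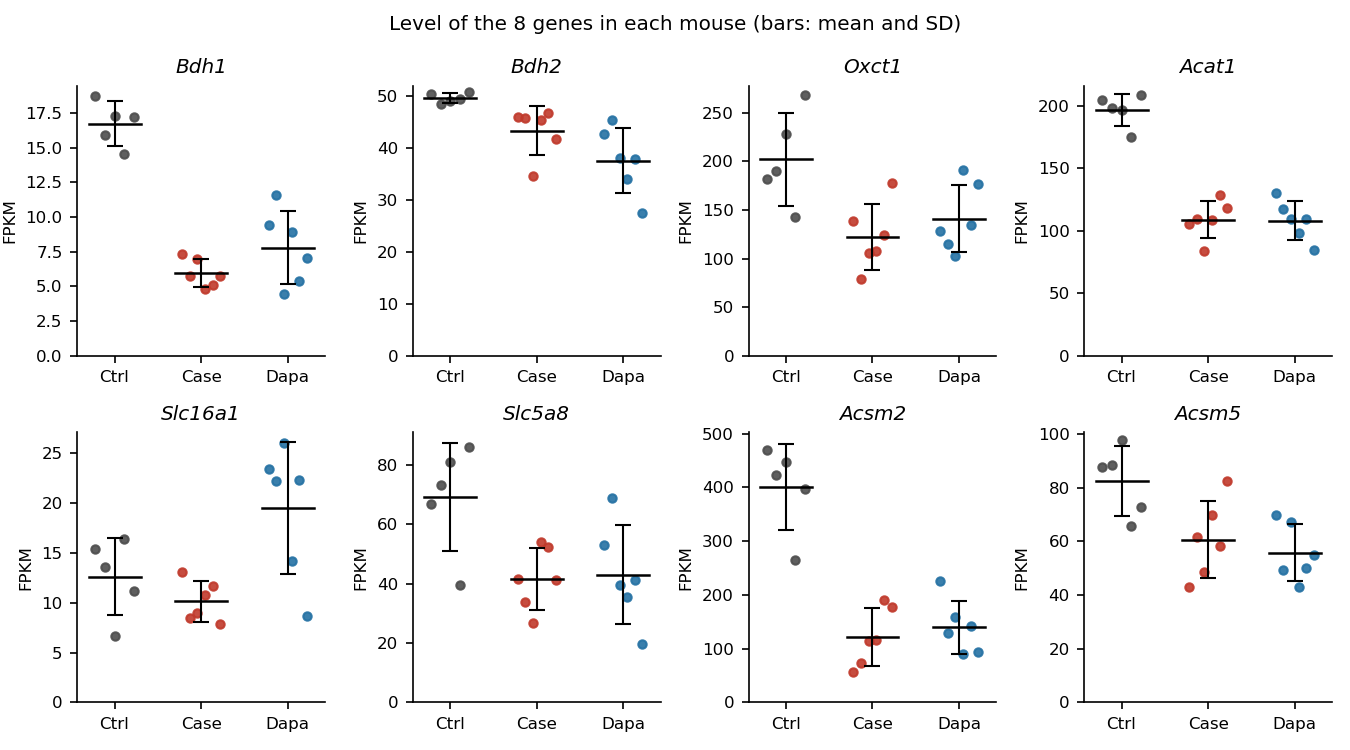
FPKM of each of the 8 genes in each mouse (points), with the group mean and SD (black bars), for 5 Ctrl, 6 Case and 6 Dapa mice; each axis starts at 0. For Bdh1, Bdh2, Acat1 and Acsm2 all Case and Dapa points lie below all Ctrl points, and for Slc16a1 4 Dapa mice lie at 22.2 to 26.0. The share of all genes without such overlap was not counted.

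Case kidneys were compared with Ctrl kidneys to describe the diabetic state. All 8 fold changes were below 0, and 5 genes were called, all of them lower: Acsm2, Bdh1, Acat1, Slc5a8 and Oxct1. Over all 14582 genes tested 13.0% were called, and 6.91% were called lower. Acsm2 and Bdh1 were DEGs, as were 3.79% of all genes. The median log2 fold change was -0.80 over the 8 genes and 0.03 over all genes tested. Bdh2, Acsm5 and Slc16a1 did not pass the test. Where groups are said below not to overlap, the share of all genes tested for which this holds was not counted.

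Bdh1, the mitochondrial 3-hydroxybutyrate dehydrogenase, was at 18.7, 15.9, 17.3, 14.5 and 17.2 FPKM in Ctrl mice 1 to 5. In Case it ran from 4.83 to 7.30 with a median of 5.74. The groups did not overlap. Its log2 fold change was -1.58 (SE 0.12), with an edgeR q of 3.65e-05.

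Oxct1, the CoA transferase that commits acetoacetate to oxidation outside the liver, was at 182.0, 190.0, 227.6, 142.3 and 267.8 FPKM in Ctrl. Its lowest, median and highest values in Case were 78.9, 116.0 and 177.5. Of 6 Case mice, 5 were below every Ctrl mouse, and Case 6 was inside the Ctrl range. The log2 fold change was -0.80 (SE 0.22), with an edgeR q of 0.0308. This call was lost without Case 2 (q 0.0545), Case 4 (0.0595), Ctrl 1 (0.0560), Ctrl 2 (0.0577), Ctrl 3 (0.0773) or Ctrl 5 (0.0766), by the same edgeR test, and the log2 fold change stayed between -0.96 and -0.69 when any 1 mouse was left out.

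Acat1, the mitochondrial thiolase, was at 204.5, 198.4, 196.8, 175.4 and 208.7 FPKM in Ctrl. In Case it ran from 84.2 to 128.3 with a median of 108.9, so the groups did not overlap. Acat1 had a log2 fold change of -0.93 (SE 0.12) and an edgeR q of 0.000813. Bdh2, a cytosolic dehydrogenase also linked to iron handling, was at 50.5, 48.5, 49.1, 49.5 and 50.8 FPKM in Ctrl. Its lowest, median and highest values in Case were 34.6, 45.7 and 46.8. All 6 Case mice were below all Ctrl mice, but the difference was small and did not pass the test over all genes (log2 fold change -0.27, SE 0.10, edgeR q 0.0832).

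Slc5a8, the sodium-coupled carrier of monocarboxylates, was at 66.9, 73.4, 80.8, 39.5 and 86.0 FPKM in Ctrl, where mouse 4 was the lowest. In Case it ran from 26.7 to 54.0 with a median of 41.4, and 2 of 6 mice were below every Ctrl mouse. The log2 fold change was -0.81 (SE 0.22), with an edgeR q of 0.0311. The call was lost without Case 2 (q 0.0649), Ctrl 1 (0.0628), Ctrl 2 (0.0688), Ctrl 3 (0.0803) or Ctrl 5 (0.0758) in the same edgeR test. Slc16a1, the proton-coupled carrier MCT1, was at 15.3, 13.5, 6.62, 16.3 and 11.2 FPKM in Ctrl and at 7.85 to 13.1 in Case, with a median of 9.88. The Case mice lay inside the Ctrl range, and the log2 fold change of -0.39 (95% interval -0.84 to 0.05) did not pass the test (edgeR q 0.226).

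Acsm2, a medium-chain acyl-CoA synthetase, had the lowest fold change of the 8 genes. It was at 469.8, 423.7, 446.9, 265.7 and 396.5 FPKM in Ctrl. In Case the lowest, median and highest values were 56.4, 115.3 and 190.8, all below Ctrl mouse 4, the lowest Ctrl mouse. Acsm2 had a log2 fold change of -1.79 (SE 0.30), with an edgeR q of 0.00323. Its neighbour Acsm5, an enzyme of the same family, was at 87.7, 88.6, 97.8, 65.6 and 72.7 FPKM in Ctrl and at 42.9 to 82.4 in Case, with a median of 59.9. Of 6 Case mice, 4 were below every Ctrl mouse, and the log2 fold change of -0.52 (SE 0.18) did not pass the test (edgeR q 0.0780).

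In the 10 libraries whose FPKM and counts matched (2 Ctrl and 5 Case), 2 of the 8 genes were called, Bdh1 and Acat1, and 258 of all 15202 genes tested (1.70%). The log2 fold changes there were -1.67 for Acsm2 (edgeR q 0.0505), -1.01 for Oxct1 (q 0.144) and -1.0 for Slc5a8 (q 0.113).

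**Figure D2:**
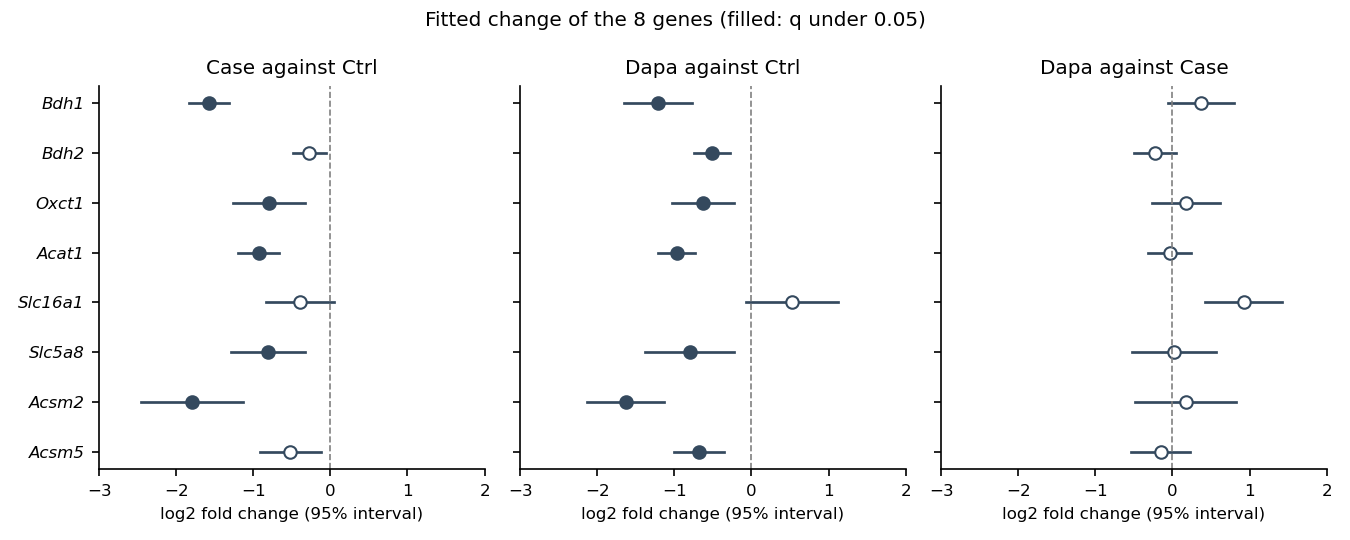
Log2 fold change of the 8 genes from edgeR (points) with its 95% interval (lines) in each comparison; filled points have a q under 0.05. In Case against Ctrl 5 genes are filled, in Dapa against Ctrl 7, all below 0, and in Dapa against Case 0, where the Slc16a1 interval runs from 0.43 to 1.42.

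Dapa kidneys were compared with Case kidneys to describe the effect of the drug in db/db mice. None of the 8 genes was called, and the test called 0 of the 14573 genes tested (0%). At an unadjusted p under 0.05 it held 1880 genes, 12.9% of those tested, and 1 of the 8, Slc16a1. DESeq2 called 208 of the 14405 genes to which it gave an adjusted p (1.44%), Slc16a1 among them.

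Slc16a1 was at 23.4, 22.2, 26.0, 14.2, 22.3 and 8.63 FPKM in Dapa mice 7 to 12. Of these 6, 5 were above the highest Case mouse (13.1), and Dapa 12 was inside the Case range. The mean was 19.5 ± 6.62 FPKM (SD, n = 6) in Dapa and 10.1 ± 2.05 in Case (n = 6), a ratio of 1.92. The log2 fold change was 0.92 (SE 0.23, 95% interval 0.43 to 1.42), with an edgeR q of 0.197. With DESeq2 the log2 fold change was 0.93 and the q 0.0142. The Dapa mice of the 10 libraries, 7 to 9, were at 22.2 to 26.0 and the other 3 at 8.63 to 22.3. In these 10 libraries the log2 fold change was 1.32 with an edgeR q of 0.0545. In the same comparison the fat marker Car3 was at 1.18 (SE 0.41, edgeR q 0.276, unadjusted p 0.0118), and Adipoq and Lep, listed at 0 in every Case mouse, reached 3.11 and 0.97 FPKM in Dapa. The adrenal marker Hsd3b1 was at 2.70 (edgeR q 0.210, unadjusted p 0.00162). Markers of the distal nephron and collecting duct were above 0 for 10 of 12 and below 0 for 2. All 6 endothelial markers were above 0. At an unadjusted edgeR p under 0.05 were 4 of the 12 and 1 of the 6, against 12.9% of all genes tested. The part of any of these markers in the Slc16a1 values was not tested.

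For the other 7 genes the fold changes between Dapa and Case were small and the groups overlapped. Bdh1 had the highest of them at 0.37 (95% interval -0.06 to 0.79, edgeR q 0.438), and 3 of 6 Dapa mice were above every Case mouse. Bdh2 was at -0.23 (-0.50 to 0.04), Oxct1 at 0.18 (-0.27 to 0.62) and Acat1 at -0.04 (-0.32 to 0.24). Slc5a8 was at 0.02 (-0.52 to 0.56), Acsm2 at 0.17 (-0.49 to 0.83) and Acsm5 at -0.15 (-0.53 to 0.23).

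Dapa kidneys were also compared with Ctrl kidneys. These Ctrl mice are the ones used for Case, so both sets of values rest on them. Of the 8 genes, 7 were called, all lower. Over the 14647 genes tested 29.1% were called and 14.9% were called lower. Bdh1 and Acsm2 were DEGs, as were 7.18% of all genes, and without Dapa 9 the number of DEGs among the 8 was 1. The median log2 fold change was -0.74 over the 8 genes and 0.02 over all genes tested.

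Bdh1 ran from 4.48 to 11.6 FPKM in Dapa with a median of 7.98, below every Ctrl mouse, and the log2 fold change was -1.21 (SE 0.20, edgeR q 0.00132). Its coefficient of variation was 34.1% in Dapa, 16.9% in Case and 9.54% in Ctrl. Acat1 was at 84.4 to 130.0 FPKM (median 109.2), again without overlap (log2 fold change -0.97, SE 0.11, edgeR q 0.000183). Bdh2 was at 27.5 to 45.4 (median 38.0), also below every Ctrl mouse, and here it was called (-0.51, SE 0.11, edgeR q 0.00505).

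Acsm2 was at 90.8 to 224.8 FPKM in Dapa (median 135.5) and did not overlap with Ctrl (log2 fold change -1.63, SE 0.23, edgeR q 0.000583). Acsm5 was at 43.0 to 69.7 (median 52.5), and 4 of 6 mice were below every Ctrl mouse (-0.68, SE 0.15, edgeR q 0.00581). Oxct1 was at 102.2 to 190.5 (median 131.4), with 4 of 6 below every Ctrl mouse (-0.63, SE 0.18, edgeR q 0.0233). Its call was lost without Ctrl 3 (q 0.0591) or Ctrl 5 (0.0641) in the same edgeR test.

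Slc5a8 ran from 19.8 to 68.9 FPKM in Dapa with a median of 40.5 and a coefficient of variation of 38.6%, and 2 of 6 mice were below every Ctrl mouse. The log2 fold change was -0.80 (SE 0.27) and the edgeR q 0.0389. The call was lost in 7 of 11 edgeR fits that left out 1 mouse: without Ctrl 1 (q 0.0737), Ctrl 2 (0.0795), Ctrl 3 (0.0906), Ctrl 5 (0.0873), Dapa 9 (0.0650), Dapa 10 (0.0785) or Dapa 11 (0.0717). Slc16a1 was the 1 member above 0 in this comparison. Of 6 Dapa mice, 4 were above the highest Ctrl mouse (16.3), and the log2 fold change of 0.52 (95% interval -0.07 to 1.12) did not pass the test (edgeR q 0.171). Without Dapa 12 it was 0.69 with an edgeR q of 0.0384, and in the 10 libraries 0.87 with a q of 0.0435.

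In the 10 libraries (2 Ctrl and 3 Dapa), 4 of the 8 genes were called, and 273 of all 14863 genes tested (1.84%). Bdh1 (edgeR q 0.140), Bdh2 (0.198), Slc5a8 (0.153) and Acsm5 (0.249) were no longer called, and Slc16a1 was called higher. Scaling to library totals without mitochondrial genes and the 10 most abundant genes moved the median of all genes by 0.18 in Dapa against Ctrl and by 0.14 in Case against Ctrl. Of the genes called, 48.7% were higher in Dapa against Ctrl and 46.9% in Case against Ctrl, and with that scaling 78.4% and 75.7%. With limma on log2(FPKM + 1) these shares were 66.2% and 59.1%. The 7 members called in Dapa kept a fold change below 0 with each of these scalings, and Oxct1 (q 0.0919) and Slc5a8 (0.0638) were not called with the reduced totals in edgeR.

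The Acsm genes of chromosome 7 differed in size of change. Acsm3, which also activates medium-chain acids, was at 60.0, 46.9, 49.1, 18.2 and 47.8 FPKM in Ctrl. It was at 2.16 to 4.15 in Case and 2.06 to 7.10 in Dapa, with log2 fold changes against Ctrl of -3.93 (SE 0.30, edgeR q 3.65e-05) and -3.66 (SE 0.36, q 0.000125). Acsm1, which takes butyrate, was at 90.6 to 187.1 in Ctrl, 39.3 to 85.0 in Case and 56.0 to 81.5 in Dapa (-1.26 and -1.06, edgeR q 0.00511 and 0.00151). Thumpd1, a tRNA-modification gene given here because it lies between Acsm1 and Acsm3, was not called (0.26 in Case against Ctrl, edgeR q 0.234). Acsm4 was not analysed here.

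The summed level of Acsm1, Acsm2, Acsm3 and Acsm5 was 667.4 ± 140.5 FPKM in Ctrl (SD, n = 5), 247.4 ± 68.4 in Case and 271.9 ± 64.9 in Dapa (n = 6 each), without overlap between Ctrl and the others. Acsm2 made up 60.1% ± 3.09 of this sum in Ctrl, 47.4% ± 10.1 in Case and 50.4% ± 5.84 in Dapa. Acsm5 made up 12.5% ± 1.24, 25.3% ± 4.95 and 20.8% ± 2.67. Acsm5, with the smaller fold change, was a larger part of the sum in every db/db mouse than in any Ctrl mouse. Ctrl 4 had the lowest Acsm2, Acsm3, Acsm5, Bdh1, Oxct1, Acat1 and Slc5a8 among the Ctrl mice, and the highest Slc16a1.

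**Figure D3:**
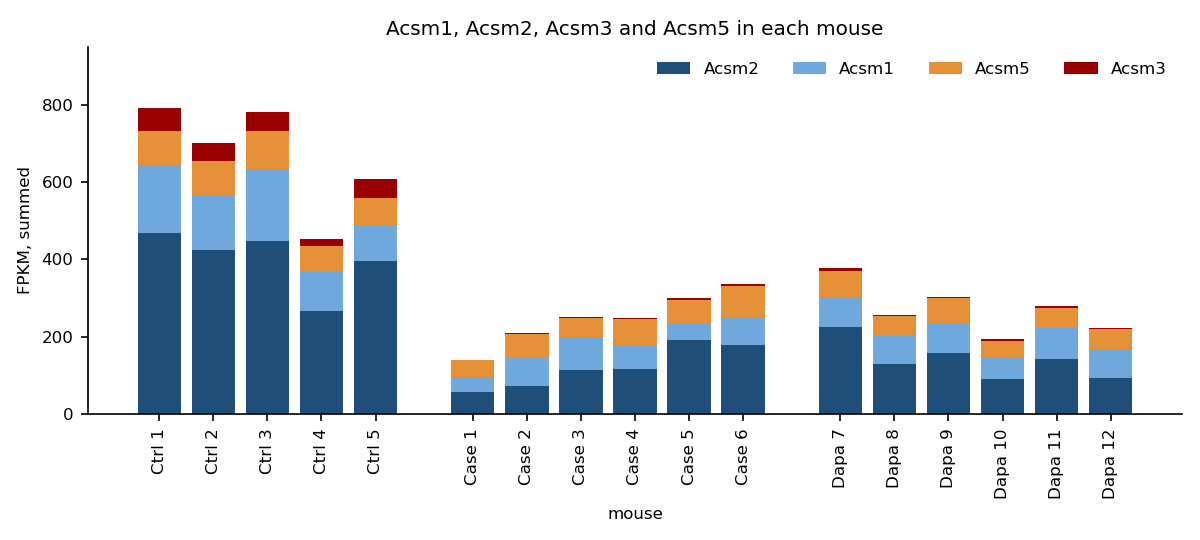
FPKM of Acsm2, Acsm1, Acsm5 and Acsm3 stacked for each mouse, with the axis from 0. The Ctrl stacks reach 454.0 to 792.9, the Case stacks 140.9 to 335.7 and the Dapa stacks 192.9 to 377.3, and the Acsm3 segment is at most 7.10 in any db/db mouse.

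The other genes of the same pathways were read from lists chosen with earlier results of these data known. Of the genes for the use of ketone bodies and acetate, 5 besides the members were tested. Both in Case and in Dapa against Ctrl, 3 were called lower and 0 higher. Over all genes tested 6.91% were called lower in Case and 14.9% in Dapa. Aacs, which activates acetoacetate in the cytosol for lipid synthesis, fell from 35.7 ± 8.27 FPKM in Ctrl to 12.2 ± 5.18 in Case and 8.61 ± 1.80 in Dapa (-1.64, edgeR q 0.00248, and -2.16, q 4.36e-05). Acss2, the cytosolic acetyl-CoA synthetase, had log2 fold changes of -0.96 and -1.04 (edgeR q 0.00253 and 0.00127). Acat2, the cytosolic thiolase, was at -0.47 and -0.71 (q 0.0144 and 0.000320 by edgeR). The mitochondrial Acss1 was not called (0.38, edgeR q 0.0954 in Case).

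Among the carriers, 10 besides the members were tested. Against Ctrl, 1 was called lower and 1 higher in Case, and 6 lower and 2 higher in Dapa. For all genes tested the share called was 13.0% in Case and 29.1% in Dapa, and the share called lower 6.91% and 14.9%. Slc16a7, the carrier MCT2, was at 11.9 to 20.9 FPKM in Ctrl, 21.4 to 30.0 in Case and 27.0 to 56.8 in Dapa, with no overlap with Ctrl (0.79, edgeR q 0.00426, and 1.27, q 0.000978). Slc16a4 was called lower in both (-0.60 and -0.63, edgeR q 0.0263 and 0.0272). Slc16a12, a creatine carrier, and Slc16a13 were called lower in Dapa (-1.02 and -1.06, edgeR q 0.00149 and 0.0167), and in Case were at -0.24 and -0.45 (q 0.267 and 0.245). Slc5a12, the low-affinity relative of Slc5a8, was at -0.39 in Dapa (edgeR q 0.0404) and -0.03 in Case (q 0.940). Bsg, the chaperone of Slc16a1 at the membrane, was at -0.30 in Dapa (edgeR q 0.0243) and -0.19 in Case (q 0.271). Slc16a3 was too low to be tested against Ctrl.

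Of the acyl-CoA synthetases and glycine conjugation genes besides the members, 9 were tested. Against Ctrl, 4 were called lower and 1 higher in Case, and 6 lower and 1 higher in Dapa. By comparison, 6.91% of all genes tested were called lower in Case and 14.9% in Dapa. Keg1, a kidney relative of the glycine acyltransferases, was at 184.6 ± 34.4 FPKM in Ctrl, 71.6 ± 22.3 in Case and 50.1 ± 10.6 in Dapa (-1.45 and -2.0, edgeR q 0.00110 and 5.87e-05). Glyat, which joins acyl groups to glycine, was called lower in Dapa (-0.74, edgeR q 0.00261) and not in Case (-0.37, q 0.170). Acsf2 went the other way (1.65 and 1.04, edgeR q 0.00141 and 0.000873).

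Of the genes of butanoate oxidation and the linked steps, 14 were tested in Case against Ctrl, with 4 called lower and 0 higher. In Dapa against Ctrl 15 were tested, with 10 lower and 0 higher. Among all genes tested 6.91% were called lower in Case and 14.9% in Dapa. Acads, the dehydrogenase of short-chain acyl-CoA, was at -0.68 and -0.64 (edgeR q 0.00276 and 0.0237). Ehhadh, the peroxisomal bifunctional enzyme, was at -0.86 and -0.76 (edgeR q 0.00765 and 0.0284). Aldh5a1 (-0.42 and -0.45, edgeR q 0.0381 and 0.0166) and Abat (-0.54 and -0.52, q 0.0518 and 0.00936) act on GABA and its product. D2hgdh was at -0.53 and -0.72 (edgeR q 0.00825 and 0.00139), and Hmgcs1, of sterol synthesis, at -0.80 and -1.27 (q 0.0828 and 0.00309 by edgeR).

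Of the regulators and receptors, 8 were tested, with 0 called in Case against Ctrl by edgeR and 1 at an unadjusted p under 0.05, which 28.7% of all genes tested had. In Dapa against Ctrl Sirt3, the mitochondrial deacetylase, was at -0.52 (edgeR q 0.0113) and Ppargc1a, a coactivator of mitochondrial genes, at 0.33 (q 0.0184). Ppara, the nuclear receptor of fatty acid oxidation, was at -0.14 in Case (edgeR q 0.716) and -0.02 in Dapa (q 0.938). Slc5a2, which encodes SGLT2, was at -0.28 and -0.03 (edgeR q 0.481 and 0.892). By the deposited KEGG terms, 16 genes of butanoate metabolism besides the members were tested in Case against Ctrl, with 7 called lower and 0 higher. In Dapa against Ctrl 17 were tested, with 13 lower and 0 higher. Shares called lower over all genes were 6.91% in Case and 14.9% in Dapa. The lists share genes, and all 7 called lower in Case were already counted in the lists above. For the synthesis and degradation of ketone bodies, 5 besides the members were tested, with 1 lower in Case and 3 lower in Dapa. In Dapa against Case edgeR called 0 of all 14573 genes tested, and so 0 in each of these lists.

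**Figure D4:**
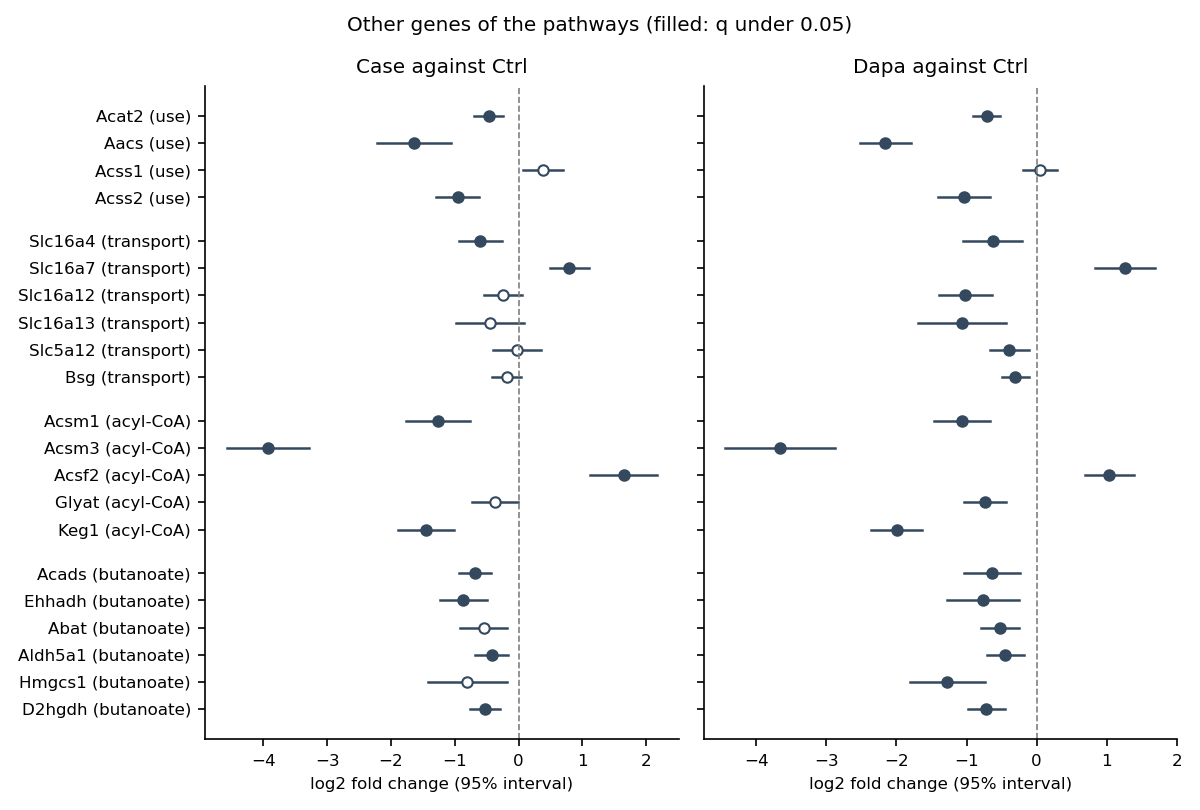
Log2 fold change from edgeR (points) with its 95% interval (lines) of selected other genes of the pathways in Case and Dapa. Each group is set against the same Ctrl mice, and filled points have a q under 0.05. Acsm3 has the lowest value in both panels (-3.93 and -3.66), and Slc16a7 and Acsf2 are the filled points above 0 among the genes plotted. Emb (0.34, edgeR q 0.0302) and Ppargc1a (0.33, q 0.0184), called higher in Dapa against Ctrl, are not plotted.

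Markers of kidney cells moved in the same comparisons. Against Ctrl, 13.0% of all genes tested were called in Case and 29.1% in Dapa, and 6.91% and 14.9% were called lower. Of 15 proximal tubule markers, 4 were called lower and 0 higher in Case and 9 lower and 0 higher in Dapa against Ctrl, and their summed level was 4278 to 4873 FPKM in Ctrl, 2586 to 4418 in Case and 2835 to 4048 in Dapa. Of 8 markers of its S3 segment, 4 and 5 were called lower and 0 higher, and their summed level was 357.1 to 637.9, 128.2 to 311.3 and 89.3 to 291.0. The endocytic receptor Lrp2 was at -0.98 and -1.25 (edgeR q 0.00407 and 0.000557), and the S3 carrier Slc7a13 at -3.24 and -2.46 (q 0.00110 and 0.00316). Other S3 markers changed less or the other way, and the median of the 8 was -1.16 and -1.35, with 7 below 0 and 1 above. Slc6a18 had means of 98.1, 91.7 and 76.8 FPKM in Ctrl, Case and Dapa, and Agt 17.6, 33.3 and 20.7. Of 12 markers of the distal nephron and collecting duct, 4 and 7 were called higher and 0 lower, with a summed level of 744.4 to 1856 in Ctrl, 1315 to 3143 in Case and 1692 to 2545 in Dapa. All 5 erythrocyte markers were called higher in both, with summed levels of 18.2 to 69.6, 56.7 to 436.4 and 110 to 357.9. The part of these markers in the lower levels of the 8 genes was not tested.

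Of 6 podocyte markers 2 and 3 were called higher and 0 lower (summed level 62.5 to 79.6, 67.9 to 108.0 and 78.4 to 101.6 FPKM). The share called over all genes tested was 13.0% in Case and 29.1% in Dapa. Of 6 endothelial and 8 macrophage markers 0 were called by edgeR, and 2 and 0 had an unadjusted p under 0.05 in each comparison with Ctrl, as did 28.7% of all genes tested in Case and 41.1% in Dapa. Of 8 liver markers, 1, Cyp2e1, which the kidney also expresses, was called lower. Cps1, a defining liver enzyme, was at 0.08 to 0.37 FPKM in all mice.

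Among the fat and adrenal markers, 1 of each list was called. Of 7 fat markers 1, Car3, was high enough to be tested, and it was called lower in Case against Ctrl (-1.78, edgeR q 0.0492) but not in Dapa against Ctrl (-0.61, q 0.291). The summed level of the 7 was 5.01 to 95.9 FPKM in Ctrl, 1.38 to 7.62 in Case and 4.59 to 20.8 in Dapa. Adipoq, a defining fat gene, was listed at 0 in all Case mice and reached 9.83 in Ctrl and 3.11 in Dapa. Of 6 adrenal markers 4 were in the table and 2 were tested. Hsd3b1, a steroid dehydrogenase, was called higher in both comparisons with Ctrl (1.72 and 4.42, edgeR q 0.0404 and 0.00238), with means of 0.184 FPKM in Ctrl, 0.644 in Case and 4.25 in Dapa. Star, the cholesterol carrier of steroid synthesis, had means of 0.280, 0.516 and 0.551 and was not called. The defining adrenal enzymes Cyp11a1 and Cyp21a1 were at most 0.07 in all mice. The part of the fat and adrenal markers in the levels of the 8 genes was not tested.

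Over the 17 mice, the genes whose level was most like that of each called member were found from Pearson's r of log2(CPM + 1), which describes these mice and reads both the groups and the mice within them. Acsm2 was most like Sap30 (0.99), Slc22a30 (0.98) and Kap (0.97), and after the group means were subtracted these values were 0.96, 0.93 and 0.89. Acat1 was most like Adhfe1, Amacr and Gm29012 (each 0.97). Bdh2 was most like Ccs (0.97), Mettl7a1 (0.97) and Mogat1 (0.96). Slc5a8 was most like Gm4737 (0.95), Cyp2j11 (0.95) and Iars2 (0.94), and Nepn (0.92) and Chchd4 (0.92) were among the genes most like Acsm5. Oxct1 was most like Erich2os (0.91), Hapln1 (0.83) and Lpl (0.82). Bdh1 was most like Ace (0.92), Cyp51 (0.92) and Fam8a1 (0.91), but without the group means these fell to 0.59, 0.46 and 0.48.

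Among the 8 genes, r over the 17 mice was highest for Acat1 and Acsm2 (0.91), which fell to 0.64 without the group means. Bdh2, Acat1 and Slc5a8 kept values of 0.82 to 0.88 with one another without the group means. Bdh1 and Acat1 were at 0.82 over all mice and 0.10 without the group means. Slc16a1 had values of -0.19 to 0.18 with the other 7 over all mice. Without the group means it was at 0.63 with Bdh2, 0.44 with Acat1, 0.38 with Slc5a8 and -0.47 with Oxct1. All of them come from the same libraries and depths and are given as a description.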

How the data were processed

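Whole-kidney RNA of 17 mice was read from strand-specific libraries. Alignment by the authors used HISAT2 and the mm10 genome, and they deposited a read count per gene from StringTie and an FPKM value. The FPKM the authors deposited could be rebuilt from count, library total and gene length with a deviation of at most 0.00178% for genes with over 100 counts in every library, so they hold no TMM factor. The annotation release is not given in the sources used here. Of 22561 genes, 3 ran over 2 lines and were left out, and 22558 were used. Those 3 gave the 7 libraries whose FPKM and counts differed by over 2%.

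Groups came from the sample labels. The main test was edgeR's quasi-likelihood test (version 4.0.16 in R 4.3.3) after filterByExpr and TMM, with Benjamini-Hochberg adjustment over all genes and each comparison on its own 2 groups. It was tested on simulated data. The alternatives were DESeq2 1.42.0, limma 3.58.1 on log2(FPKM + 1) and log2(FPKM + 0.1), voom, other scalings, no filter, all groups in one fit, a block for the replicate number and leaving out single mice. Summaries used Python 3.11.15, numpy 2.4.6, pandas 2.3.3 and matplotlib 3.10.9. The 8 genes and all lists were chosen with earlier results of these data known. The genes named were the 8, 20 fixed genes of the pathways, up to 3 called genes with the largest change of each list in each comparison with Ctrl, and for each called member the 3 genes most like it. Some genes that meet this rule are not reported here. Symbols on more than 1 row took the row with the most counts. P-values measure the spread between mice. Depth limits low genes only, since each of the 8 had at least 443 counts in every mouse.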

Additional observations from a re-analysis of the deposited data

How the results depend on the processing

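In 520 refits of a member's log2 fold change under another setting, 465 kept direction and side of the threshold, 35 lost the call, 6 gained it and 14 changed sign. All 14 belong to Dapa against Case, where no member was called: Slc5a8 with limma on log2(FPKM + 0.1) (-0.0102), limma on log2(FPKM + 1) (-0.0084), voom (-0.11), and without 1 mouse (-0.16 to 0.17), Acat1 in the other 10 libraries (0.10), with a term for the 7 libraries (0.0272) and without 1 mouse (-0.11 to 0.0262), Oxct1 in the other 10 libraries (-0.0674), and Acsm2 without 1 mouse (-0.0120 to 0.34). The cause was not tested. Bdh1 and Acat1 were called in Case against Ctrl in all 22 alternatives, and Acat1 and Acsm2 in Dapa against Ctrl in all 21.

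Leaving out 1 mouse gave 3 to 6 called members in Case against Ctrl, 0 in Dapa against Case and 5 to 8 in Dapa against Ctrl, with 2, 0 and 1 to 2 DEGs. The 1 was without Dapa 9. All genes called then ranged from 1002 to 2154, 0 to 7 and 3227 to 4690. The other 10 libraries, added after seeing the data, gave 2, 0 and 4 called members, 1, 0 and 1 DEGs, and 258, 0 and 273 genes, with fewer mice. The term for the 7 libraries gave 1219 genes in Case against Ctrl. In Dapa against Case DESeq2 called 208 genes and 1 member, and all groups in one fit 5 genes. The labels share replicate numbers 1 to 5 between Ctrl and Case. Same-numbered mice had r of -0.08 to -0.04, and 0 of 5 Ctrl mice were closest to their own number. Case 3 or Case 5 was the closest for every Ctrl mouse, so these values cannot decide whether the numbers mark a pairing. With the replicate block 699 genes and 4 members were called, and Slc5a8 was not (q 0.128).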
